A study of Mus musculus with 48 samples.

Results

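IGHM, the constant gene of the mu heavy chain that makes IgM, was followed through B cell receptor (BCR) heavy-chain libraries of the lacrimal gland (LG) and the spleen (SP) of 24 mice. Its members are all sequences whose called constant gene was IGHM, 1 of the 8 constant genes called, and it was found in all 48 libraries. The NOD-FMT group comprised 10 B6 mice gavaged with fecal microbiota of 30 male NOD.B10.H2b donors older than 20 weeks, a strain with autoimmune dry eye disease. The PBS-T group comprised 9 B6 mice gavaged with PBS on the same schedule. Both groups had drunk an antibiotic cocktail beforehand and were gavaged daily from 5 weeks of age for 3 weeks. The NC group comprised 5 untreated B6 mice of the same cohort, so NC and PBS-T mice differ in antibiotics and gavage together. The LG and the spleen of the same number came from the same mouse, and all recipients were C57BL/6.

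IgM is the first isotype that a B cell makes, and naive B cells splice IGHM and IGHD, the delta gene, from the same transcripts. Class switching later joins the rearranged V region to a downstream gene such as IGHA, the alpha gene of IgA, or 1 of the IGHG genes of IgG. The lacrimal gland is known for IgA plasma cells, whose antibody reaches the tears, whereas the spleen is known for naive IgM-bearing follicular and marginal zone B cells. The libraries hold heavy-chain sequences and no other transcripts, so the tissues could not be checked against marker genes. In bulk RNA, fewer cells of a type and less RNA per cell cannot be told apart.

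Reverse transcription used primers in the first constant domain (CH1), with an own primer for IGHM and a shared set for the IGHG genes. Shares of isotypes therefore also carry the efficiency of these primers. The part of the primer that binds IGHM is shown because it defines which transcripts could be counted, with the bound bases in capitals.
IGHM primer: AGACGAGGGGGAAGACATTTGG
Its 22 bases lie on chromosome 12 of GRCm38 from 113422695 to 113422716, antisense to the transcript, and they start 15 bases into the first exon of Ighm (113422416 to 113422730, 315 bases) in both annotated transcripts. The gene spans 113418558 to 113422730 on the minus strand (GENCODE M21).

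A count is 1 consensus sequence of the reads that share a unique molecular identifier (UMI). A nucleotide sequence held by 3 or more mice of a tissue was removed as possible cross-contamination, and a clonotype is the set of sequences with the same IGHV gene, IGHJ gene and HCDR3 amino acids. After this step, LG libraries held 40105 to 264365 counts and spleen libraries 71859 to 2032338. IGHM took 116624 of 2595348 counts in the LG (4.49%) and 7231279 of 10518641 in the spleen (68.7%), on 4681 and 2439355 distinct clonotypes. Within libraries, IGHM counts ranged from 167 to 55443 in the LG and from 51867 to 1308694 in the spleen. The LG values therefore rest on few IGHM sequences. The filter took out 9.83% of LG counts and 9.84% of spleen counts of all isotypes, and unmutated sequences that mice share are among those it removes. The file names mark 11 LG libraries as merged (6 NOD-FMT, 4 PBS-T and 1 NC) and leave 13 unmarked, without saying what was merged, and no spleen library carries the mark.

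IGHM held a smaller share of the LG than of the spleen in every mouse. It was the main isotype of all 24 spleens, while of the glands it led only in PBS-T mouse 9. Its share of LG counts was 4.81% ± 10.7 (SD, n = 24), with a median of 1.21%, against 70.3% ± 6.49 (SD, n = 24) in the spleen. The share was lower in the LG in 10 of 10 NOD-FMT, 9 of 9 PBS-T and 5 of 5 NC mice. The mean difference within mice was -65.5 percentage points (two-sided sign-flip permutation test over 24 mice, p = 1e-05, the smallest that 100000 resamples can give, and 1.33e-05 after Benjamini-Hochberg adjustment over 4 tests). Counted by clonotypes, IGHM took 16.6% ± 12.9 (SD, n = 24) of the LG and 77.8% ± 2.81 (SD, n = 24) of the spleen, a difference of -61.2 points (permutation p = 1e-05).

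**Figure D1:**
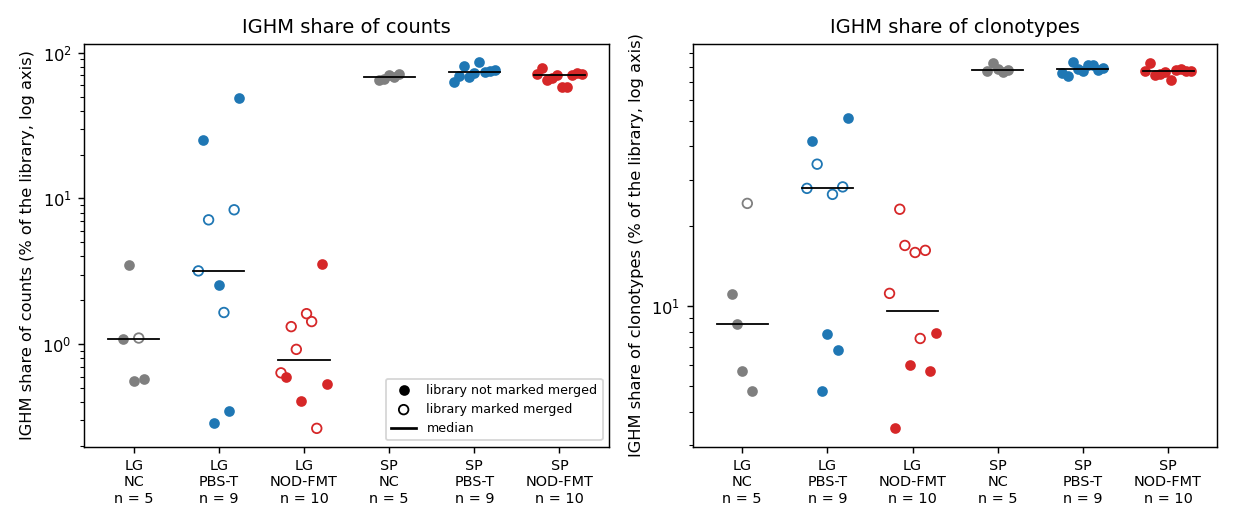
IGHM share of the counts and of the clonotypes of each library, in percent of the library on log axes, by tissue and group, with 1 point per mouse, open where the library is marked merged, and a bar at the median. All spleen points lie above 57% of counts, and the LG points spread from 0.265% to 48.9%, with PBS-T mice 2 and 9 highest.

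In the LG, the NC mice had IGHM shares of 1.09%, 3.50%, 0.555%, 1.10% and 0.579% of counts (mice 1 to 5). The NOD-FMT mice ranged from 0.265% in mouse 8 (245 of 92606 counts, Wilson 95% interval 0.233% to 0.300%) over a median of 0.778% to 3.53% in mouse 9. The PBS-T mice ranged from 0.289% in mouse 4 over a median of 3.18% to 48.9% in mouse 9 (Wilson 95% interval 48.6% to 49.2%). The spread was widest among the PBS-T mice, of which mouse 2 had 25.0%, mouse 8 had 8.35% and mouse 3 had 7.13%, while mice 1, 4, 5, 6 and 7 lay within the range of the other groups. These intervals cover counting error only.

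Whether FMT went with a different IgM share in the gland was asked by comparing the NOD-FMT and PBS-T groups. The mean share of LG counts was 1.13% ± 0.962 (SD, n = 10) in NOD-FMT mice and 10.8% ± 16.2 (SD, n = 9) in PBS-T mice. The difference of -9.69 points had an exact two-sided permutation p of 0.00706, and 0.113 after adjustment over 16 tests between groups, so it did not pass the threshold of 0.05. By clonotypes, the means were 11.4% ± 6.37 (SD, n = 10) and 25.4% ± 16.2 (SD, n = 9), a difference of -14.0 points (exact permutation p = 0.0206, adjusted 0.116).

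The size of this difference rested on PBS-T mouse 9, without which it was -4.93 points of counts (exact permutation p = 0.0149, adjusted 0.231). Without PBS-T mice 2 and 9 together, it was -2.23 points of counts and -8.03 points of clonotypes (adjusted exact permutation p = 0.329 for both). It passed the threshold without PBS-T mouse 4 (-11.0 points, adjusted exact permutation p = 0.0428) or PBS-T mouse 7 (-11.0 points, adjusted exact permutation p = 0.0439), and by clonotypes without PBS-T mouse 4 (-16.6 points, adjusted exact permutation p = 0.0472).

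The merged and the other LG libraries were also compared apart. Among the merged libraries the differences were -4.05 points of counts and -14.0 points of clonotypes, and both passed the threshold (adjusted exact permutation p = 0.0286 each). Here the 4 PBS-T libraries held IGHM in 26.4% to 34.3% of clonotypes and the 6 NOD-FMT libraries in 7.55% to 23.2%, without overlap. Among the other libraries the differences were -14.1 and -16.7 points (adjusted exact permutation p = 0.554 each). There the 4 NOD-FMT libraries held 3.46% to 7.92%, and the 5 PBS-T libraries held 4.79%, 6.81%, 7.82%, 41.8% and 51.1%, so the groups overlapped.

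The remaining comparisons of the IGHM share between groups did not pass the threshold. In the LG, NOD-FMT and NC mice differed by -0.239 points of counts (adjusted exact permutation p = 0.825), and PBS-T and NC mice by 9.45 points (adjusted exact permutation p = 0.400). In the spleen, the means were 68.2% ± 6.52 (SD, n = 10) in NOD-FMT, 73.9% ± 6.82 (SD, n = 9) in PBS-T and 68.2% ± 2.82 (SD, n = 5) in NC mice. The spleen difference between NOD-FMT and PBS-T was -5.69 points (adjusted exact permutation p = 0.325), and by clonotypes it was -1.85 points (adjusted exact permutation p = 0.400). The effect in the LG minus that in the spleen was -4.01 points of counts (adjusted exact permutation p = 0.535, over 4 such tests) and -12.2 points of clonotypes (adjusted exact permutation p = 0.128).

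The isotypes beside IGHM differed between the tissues. In the LG the median share was 96.5% for IGHA and 0.00861% for IGHD, which stayed at or below 0.214% in every LG library. In the spleen the medians were 11.7% for IGHA and 6.01% for IGHD. In the LG library of PBS-T mouse 9, IGHG2C, a gamma 2 gene of B6 mice, held 32.1% of counts and IGHA 13.9%. In that of PBS-T mouse 2, IGHG2B, another gamma 2 gene, held 30.5% and IGHA 42.3%. The glands with the highest IGHM shares thus also held much IgG, and IGHG2C held 17.7% in PBS-T mouse 8. This did not hold for NOD-FMT mouse 9, with 3.53% IGHM, 0.148% IGHG2C and 1.65% IGHG2B, both below their LG medians.

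Over the 24 LG libraries, IGHG2C (Spearman rho 0.419, Pearson r 0.827) and IGHG2B (rho 0.385, r 0.499) followed IGHM most closely. Over the 24 spleens the highest values were those of IGHE, the epsilon gene (rho -0.0443, r 0.0774), and IGHG1 (rho -0.209, r -0.220). IGHA ran against IGHM in both tissues (rho -0.874 in the LG and -0.691 in the spleen). These values are descriptions, since the shares of a library sum to 100%. Without PBS-T mice 2 and 9, the LG values were rho 0.258 and r 0.691 for IGHG2C and rho 0.206 and r 0.361 for IGHG2B (n = 22).

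Most IGHM counts carried no mutation in the V region, in both tissues. Mutations here are mismatches to the reference IGHV gene. B cells gain mutations by somatic hypermutation, but mismatches can also be differences from the reference gene, and these were not told apart. The unmutated share of IGHM counts was 74.5% ± 21 (SD, n = 24) for LG libraries and 73.4% ± 9.04 (SD, n = 24) for spleen libraries. The difference within mice was 1.08 points (sign-flip permutation p = 0.763 before and after adjustment), so the means were close while the LG libraries were spread more widely. Without the filter the means were 75.9% ± 20.1 (SD, n = 24) and 76.1% ± 9.26 (SD, n = 24). Counted by sequences rather than counts, the unmutated share was 58.5% ± 16.6 (SD, n = 24) among LG and 73.3% ± 7.23 (SD, n = 24) among spleen sequences. By sequences the LG value was 14.8 points lower (SD 15), with the LG below the spleen in 21 of 24 mice (sign-flip permutation p = 2e-05, adjusted 2e-05). The difference between the tissues therefore depended on whether counts or sequences were compared, and the test by sequences was added after the values were seen.

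**Figure D2:**
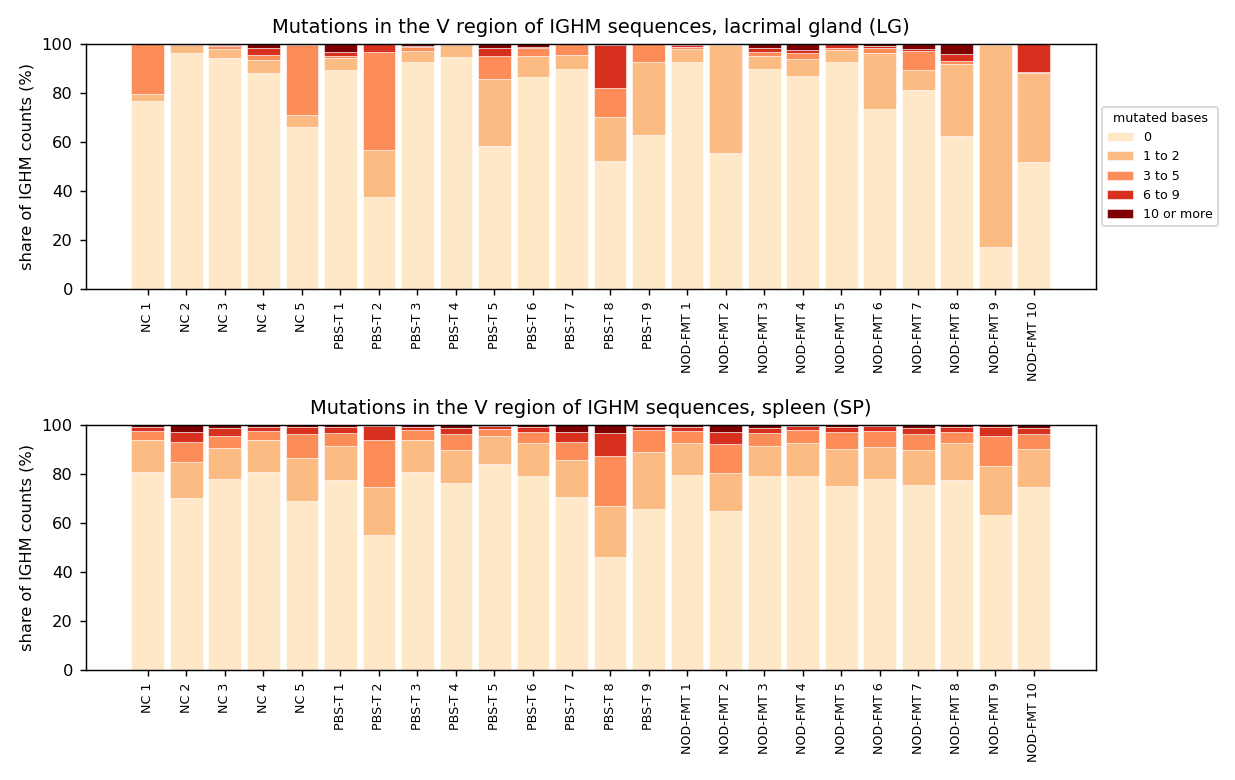
Share of the IGHM counts of each library with 0, 1 to 2, 3 to 5, 6 to 9 and 10 or more V mutations, in percent, as stacked bars for every mouse, LG above and SP below. NOD-FMT mouse 9 has the lowest unmutated share in the LG, 16.9%, and PBS-T mice 2 and 8 have the largest shares of counts with 3 or more mutations in the spleen.

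The unmutated share varied more between glands than between spleens. In the LG the unmutated share ran from 16.9% in NOD-FMT mouse 9 to 96.2% in NC mouse 2, and in the spleen from 46.2% in PBS-T mouse 8 to 84.2% in PBS-T mouse 5. Sequences with 3 or more mutations took 43.5% of IGHM counts in the LG of PBS-T mouse 2 and 25.3% in its spleen. In PBS-T mouse 8 they took 30.0% in the LG and 33.0% in the spleen, so both tissues of these mice were at the high end. NC mouse 5 had 29.1% in the LG and 13.4% in the spleen. The LG of NOD-FMT mouse 9 differed from these, since its mutated counts mostly carried 1 mutation and 0.461% carried 3 or more. Counts with 1 to 2 mutations also took 44.0%, 29.4% and 36.2% in the LG of NOD-FMT mice 2, 8 and 10. In the LG of PBS-T mice 5 and 9 they took 27.6% and 30.1%.

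No comparison of the unmutated share between groups passed the threshold. The NOD-FMT minus PBS-T difference was -3.32 points in the LG (adjusted exact permutation p = 0.825) and 4.14 points in the spleen (adjusted exact permutation p = 0.554). Against NC mice, the LG difference was -13.9 points for NOD-FMT (adjusted exact permutation p = 0.523) and -10.6 points for PBS-T (adjusted exact permutation p = 0.531). The corresponding spleen differences were -0.975 and -5.12 points (adjusted exact permutation p = 0.825 and 0.576). The effect in the LG minus that in the spleen was -7.46 points (adjusted exact permutation p = 0.510).

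The IGHM counts of the gland were held by few clonotypes, and those of the spleen by many. The largest clonotype of a library took 30.7% ± 18.7 (SD, n = 24) of its IGHM counts for LG and 3.88% ± 8.96 (SD, n = 24) for spleen libraries. The difference within mice was 26.8 points (sign-flip permutation p = 1e-05, adjusted 1.33e-05), and the LG value was lower in 1 mouse, PBS-T mouse 6. Between 1 and 34 clonotypes made up 50% of the IGHM counts of an LG library, with a median of 3. In the spleens this took 253 to 8333 clonotypes, except 7 in PBS-T mouse 6.

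**Figure D3:**
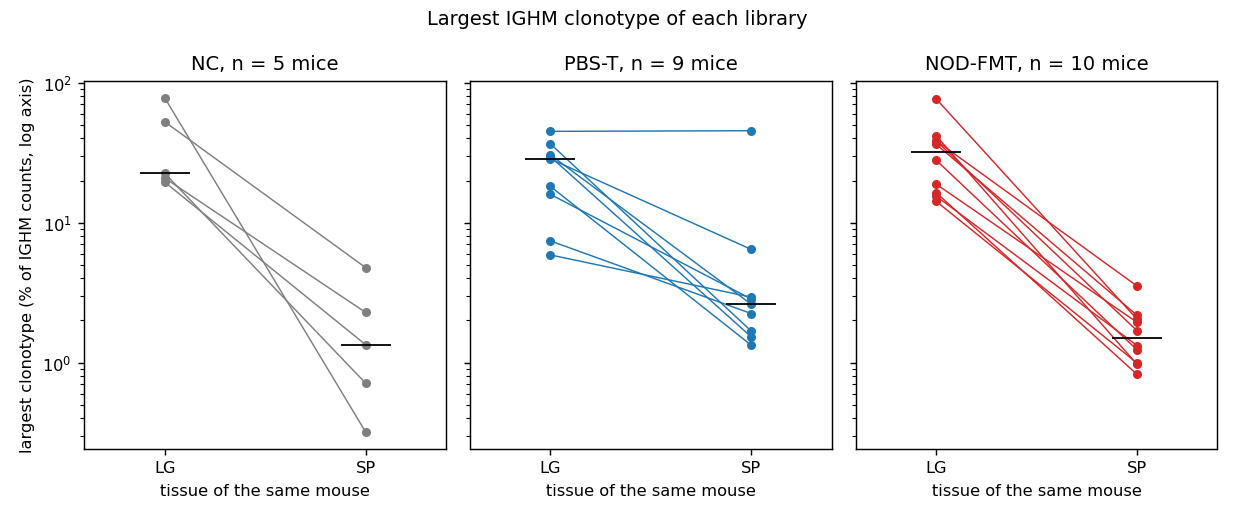
Share of the IGHM counts held by the largest IGHM clonotype of each library, in percent on a log axis, with lines that join LG and SP of the same mouse and a dash at each group's median. The LG lies above the spleen in all mice but PBS-T mouse 6, and NC mouse 2 and NOD-FMT mouse 9 are highest, at 78.2% and 76.9%.

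With every library thinned to 40105 counts, the largest clonotype still differed by 26.8 points (sign-flip permutation p = 1e-05 and adjusted 1.33e-05). The number of IGHM counts still differed after thinning, since IGHM is a smaller part of the LG. The largest LG share did not differ between NOD-FMT and PBS-T past the threshold (8.36 points, adjusted exact permutation p = 0.531). For spleens it was -5.78 points (exact permutation p = 0.0217, adjusted 0.116), and -1.03 points without PBS-T mouse 6 (adjusted exact permutation p = 0.400). The effect in the LG minus that in the spleen was 14.1 points and did not pass the threshold (exact permutation p = 0.0641, adjusted 0.128). On the log2 scale it did, at 1.62 (adjusted exact permutation p = 0.0285).

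The junctions of the largest clonotypes are shown because they carry these shares. Each runs 5′ to 3′ from the conserved cysteine codon to the conserved tryptophan codon, and capitals mark the HCDR3. The most abundant nucleotide form of each clonotype is given.
LG NC mouse 2: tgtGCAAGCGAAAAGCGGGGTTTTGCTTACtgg
LG NOD-FMT mouse 9: tgtGCAAGGGAACTGGTGTTTGCTTACtgg
LG NC mouse 3: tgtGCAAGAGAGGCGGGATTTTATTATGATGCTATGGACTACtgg
LG and SP PBS-T mouse 6: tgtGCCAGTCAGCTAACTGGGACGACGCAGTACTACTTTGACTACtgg
LG NOD-FMT mouse 1: tgtGCAACTGACTACtgg
SP PBS-T mouse 2: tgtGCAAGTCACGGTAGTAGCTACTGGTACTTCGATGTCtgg
SP NC mouse 3: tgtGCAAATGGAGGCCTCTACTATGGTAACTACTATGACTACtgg

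The clonotype of LG NC mouse 2 joined IGHV1-64 to IGHJ3 and held 1771 of 2264 IGHM counts (78.2%), of which 97.1% were unmutated. In this mouse's spleen it had 163 IGHM counts, or 0.314% of IGHM. It therefore took a far larger part of the IgM sequences of the gland than of those of the spleen. Neither tissue of any other mouse held it as IGHM.

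In LG NOD-FMT mouse 9, IGHV1-69 with IGHJ3 held 4675 of 6076 IGHM counts (76.9%). Its own spleen had 8355 IGHM counts of this clonotype (1.77% of IGHM) together with 563 IgG and 16 IGHA counts. It was thus among the clonotypes found both as IgM and as switched isotypes in the same mouse. In the gland 97.3% of its counts carried exactly 1 mutation and 0.0214% carried none, which gave this library its low unmutated share.

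In LG NC mouse 3, IGHV1-26 with IGHJ4 held 223 of 423 IGHM counts (52.7%), and its spleen had 712. In LG NOD-FMT mouse 1, IGHV1-26 with IGHJ2 and an HCDR3 of 4 residues held 645 of 1537 IGHM counts (42.0%). After the filter this short clonotype had no count in the mouse's own spleen and was found in 6 other spleens. Without the filter it had 9 IGHM counts in its own spleen and was found in 15 others.

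In PBS-T mouse 6, the same clonotype led both tissues. IGHV2-9-1 with IGHJ2 held 412 of 916 IGHM counts in the LG (45.0%) beside 826 IGHA counts, and 28038 of 61685 in the spleen (45.5%) beside 425 IGHA and 271 IgG counts. Removal of sequences found in 3 or more mice lowered the spleen value. A single sequence of 138414 counts was taken out because it occurred in 8 mice, with at most 3 counts in any library of another mouse. With it, the clonotype held 166452 IGHM counts, or 82.0%, and this spleen lost 69.6% of its IGHM counts to the filter, whereas the other spleens lost 6.12% to 14.6%.

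Of the other spleens, IGHV1-20 with IGHJ1 held 6.43% of IGHM counts in PBS-T mouse 2, and IGHV1-55 with IGHJ2 held 4.77% in NC mouse 3. The first had 1 IGHM count in its mouse's LG and the second had none there. Unmutated sequences made up 95.9% and 92.5% of their counts.

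LG clonotypes were searched for in the spleens. Of the IGHM clonotypes of an LG, a median of 26.8% (2.75% to 55.6%, n = 24) were also IGHM clonotypes of the same mouse's spleen. This share was 9.96% to 39.7% in merged LG libraries and, apart from PBS-T mouse 5, 20.7% to 55.6% in the others. The part of the mark in this was not tested. For the spleens of the other mice, the median share was 4.55% (2.01% to 11.4%). The own spleen held more than any other spleen in 23 of 24 mice. Weighted by counts, the own spleen held a median of 64.5% and led in 22 of 24 mice. The filter also removes overlap, and without it the medians by clonotypes were 30.3% for the own and 8.60% for the other spleens, with the own spleen highest in 23 of 24 mice by clonotypes and by counts.

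**Figure D4:**
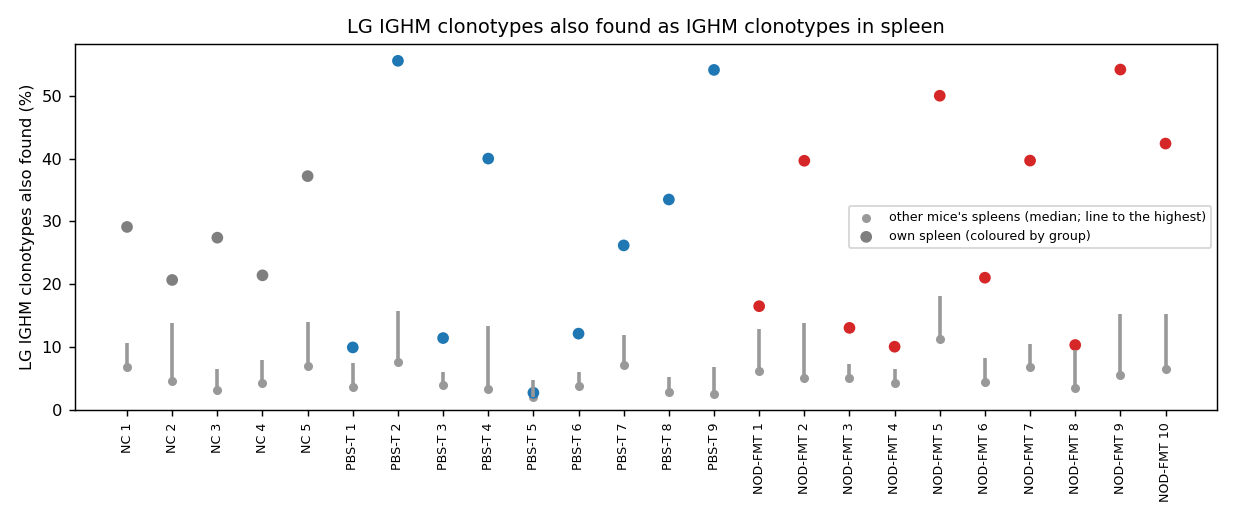
Share of the IGHM clonotypes of each LG that were also IGHM clonotypes in a spleen, in percent of the LG's IGHM clonotypes, for each mouse, with its own spleen beside the median and the highest of the 23 other spleens. The own spleen is the highest in all mice except PBS-T mouse 5, where it is 2.75% and the highest other spleen 4.75%.

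The exception by clonotypes was PBS-T mouse 5, with 37 of 1346 LG clonotypes in its own spleen (2.75%) and up to 4.75% in another. This LG library held 17213 clonotypes of all isotypes, where the other LG libraries held 560 to 2504, and the filter removed 23.8% of its IGHM counts. Weighted by counts, NOD-FMT mouse 1 was also an exception after the filter, at 38.0% in its own spleen and 54.5% in another, but not without it. Overlap was higher for abundant clonotypes. Of 3574 LG clonotypes with 1 IGHM count, 452 were in the own spleen (median share 14.8% per mouse), and of 1298 with 2 or more counts, 606 were (median 49.7%).

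Clonotypes with both IGHM and IGHA counts in the same library were more frequent among IGHM clonotypes of the LG than of the spleen. The mean shares were 5.83% ± 6.02 (SD, n = 24) and 0.857% ± 0.396 (SD, n = 24), and the LG was higher in 21 of 24 mice. Weighted by counts, the LG was higher in 11 of 24 mice, with means of 28.7% ± 24.5 (SD, n = 24) and 23.8% ± 10.3 (SD, n = 24). The LG libraries also hold far more IGHA counts, and the part of this in the difference was not tested. In the LG the share ran from 0% in NC mouse 3 to 23.8% in NOD-FMT mouse 7.

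Among IGHM clonotypes, IGHJ1 was used by 19.7% ± 6.91 (SD, n = 24) of LG and 15.7% ± 0.535 (SD, n = 24) of spleen clonotypes, with the LG higher in 18 of 24 mice. For the other joining genes, the LG was higher in 8 of 24 mice for IGHJ2, 14 for IGHJ3 and 10 for IGHJ4, with mean differences of -3.0, 0.124 and -1.07 points. The mean HCDR3 length was 11.2 ± 0.497 residues (SD, n = 24) for LG and 11.4 ± 0.175 (SD, n = 24) for spleen clonotypes. These values are given as descriptions without a test.

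The V genes of IGHM clonotypes were compared between LG and spleen within mice with edgeR on numbers of clonotypes per V gene. Of 107 V genes tested, 50 passed an adjusted p of 0.05 (46.7%), 30 with a higher share in the LG (28%) and 20 with a lower share (18.7%). Of these, 17 were genes that the spleen hardly used. All 17 such genes in the test passed. The genes hardly used took together at most 0.0771% of the IGHM clonotypes of any spleen. This is under the limit of the low-count filter of edgeR. All 17, such as IGHV3-2 with 3 spleen clonotypes, had therefore entered the test through the LG. Their calls, which are counted in the 50 and the 30 above, are no support for a difference. Of the other 90 tested genes 33 passed, 13 with a higher and 20 with a lower LG share. IGHV1, the largest mouse V family, gave 50 of the 107 tested genes (46.7%), 17 of the 20 lower and 9 of the 30 higher ones. Over all genes tested, the median log2 fold change was 0.06.

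The split depended on the scaling. With TMM factors 24 genes were higher and 36 lower, and with DESeq2 24 and 47, where the median log2 fold change was -0.40 and -0.62. In both, 44 of the 50 genes were called again in the same direction. Of the 50 genes, 25 were called again without the block for the mouse, which called 33 of 82 genes tested. With clonotypes of at least 2 counts 8 of 72 tested genes passed, 6 of them among the 50.

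**Figure D5:**
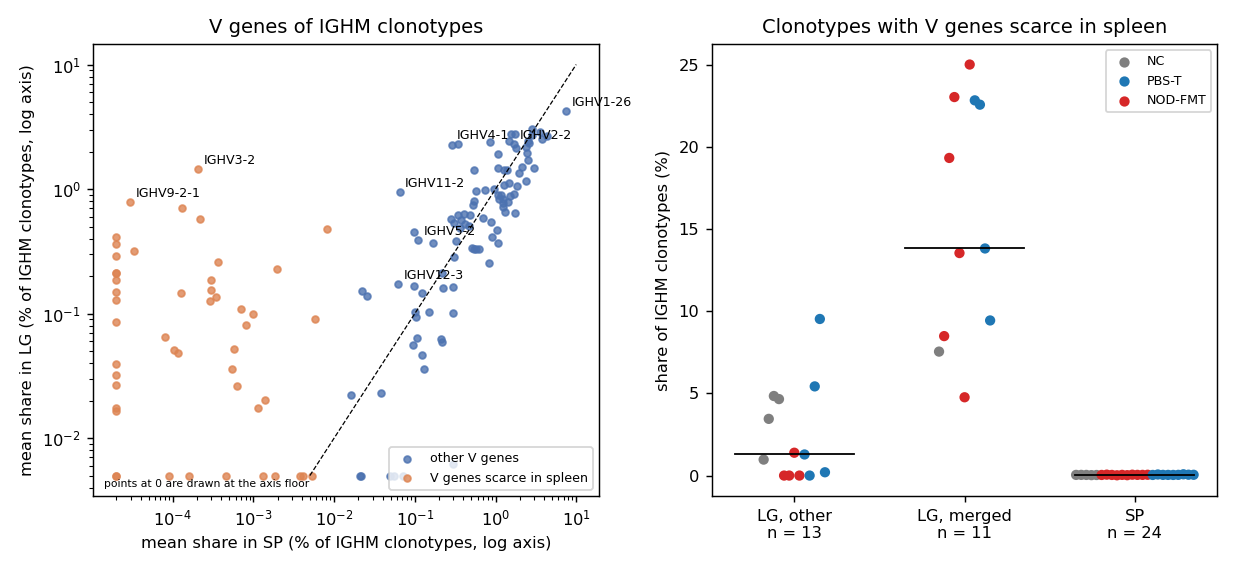
Left, the mean share of each V gene among IGHM clonotypes in SP and LG, in percent on log axes, with V genes scarce in spleen in orange, others in blue, points at 0 at the axis floor and a dashed line at equal shares. Right, the share of IGHM clonotypes whose V gene is scarce in spleen, in percent, for each merged LG, other LG and SP library, with medians of 13.8%, 1.28% and 0.0411%.

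The 17 V genes scarce in the spleen were under 0.01% of its IGHM clonotypes over all mice, and their LG shares are given as a description. IGHV3-2 had 77 IGHM clonotypes in 14 LG libraries and 3 in all spleens, IGHV9-2-1 had 37 and 1, IGHV9-3-1 had 35 and 3, and IGHV1S81 had 23 and 9. With so few spleen clonotypes, the fitted fold changes depend on the prior count and are not given.

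Of the 148 V genes called in the series, 50 were scarce by this limit, and 6 of these, against 93 of the other 98, are annotated as functional V genes of the B6 genome in GENCODE M21. They made up 418 of 4872 LG IGHM clonotypes (8.58%) and 1093 of 2672756 spleen clonotypes (0.0409%), summed over libraries. In the LG 389 of the 418 had 1 count and none had more than 3. They took 4.76% to 25.0% of the IGHM clonotypes of the merged LG libraries and 0% to 9.52% of those of the other LG libraries. The mark on the library thus moved with these clonotypes, and its part in the result was not tested. Without these V genes, the differences in IGHM share between LG and spleen, and those between NOD-FMT and PBS-T in the LG, kept their side of the threshold, with -13.8 points of clonotypes for the last (adjusted exact permutation p = 0.115).

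The other 13 higher V genes had log2 fold changes from 0.58 to 3.66. IGHV4-1 took 2.26% ± 1.45 (SD, n = 24) of LG IGHM clonotypes and 0.286% ± 0.0907 (SD, n = 24) of spleen ones, with the LG higher in 22 of 24 mice (log2 fold change 2.96, SE 0.23, edgeR adjusted p = 2.99e-22). It was found on 104 LG clonotypes, of which 79 had 1 count and 19 were in the own spleen. IGHV4-1 was higher also with clonotypes of at least 2 counts (1.58, edgeR adjusted p = 1.26e-04) and among mice with an unmarked LG library (2.13). Among mice with a merged LG library it was 3.47.

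B-1 cells, which make natural antibody and reach mucosal tissues, are known for IGHV11 and IGHV12 receptors that bind phosphatidylcholine. IGHV11-2 took 0.945% ± 0.935 (SD, n = 24) of LG and 0.0650% ± 0.0162 (SD, n = 24) of spleen IGHM clonotypes, with the LG higher in 16 of 24 mice and at 0 in the others (log2 fold change 3.66, SE 0.34, edgeR adjusted p = 1.78e-17). In this fit IGHV11-2 had entered the test through the LG, since its spleen shares (0.0444% to 0.118%) lay mostly under the limit of the low-count filter. That call is therefore no support for a difference. Without the low-count filter the log2 fold change was 3.63 (edgeR adjusted p = 3.99e-11). By group, the LG means were 1.41% ± 0.986 (SD, n = 10) in NOD-FMT, 0.652% ± 0.665 (SD, n = 9) in PBS-T and 0.544% ± 1.01 (SD, n = 5) in NC mice. Of its 38 LG clonotypes, 26 had 1 count and 19 were in the own spleen. It passed the threshold also with clonotypes of at least 2 counts (2.64, edgeR adjusted p = 6.37e-05) and among mice with an unmarked (2.59) or a merged LG library (4.34). Among NOD-FMT and PBS-T mice alone it passed (4.73 and 3.10), and among NC mice alone it did not (2.54, edgeR adjusted p = 0.536). Its median LG share was 1.06% in merged and 0% in unmarked libraries. The group means above were not tested, and the mark was unequal between groups.

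IGHV12-3 had a log2 fold change of 1.57 (SE 0.51, edgeR adjusted p = 0.0204), on 9 LG clonotypes in 7 libraries. It had entered the test through the LG, since the IGHV12 family took at most 0.0919% of the IGHM clonotypes of a spleen. Its call is therefore no support for a difference. IGHV12-3 lost the call without NOD-FMT mouse 3, NOD-FMT mouse 7 or PBS-T mouse 9, with clonotypes of at least 2 counts and with TMM factors. Among mice with an unmarked LG library it was 0.20 (edgeR adjusted p = 0.921), and among those with a merged one 2.37 (edgeR adjusted p = 0.0024). IGHV11-1 had 0 LG clonotypes and 101 in the spleens and was not tested. IGHV2-2 and IGHV5-2, which lie near the D genes and rearrange early in life, had log2 fold changes of 0.32 and 0.75 and did not pass (edgeR adjusted p = 0.259 and 0.282). Of the 6 genes of this list, IGHV4-1, IGHV11-2 and IGHV12-3 passed with a higher LG share, 2 did not pass and 1 was not tested. Since IGHV11-2 and IGHV12-3 entered through the LG and IGHV11-1 could not enter, this tally is no support for a difference. Of all V genes tested, 28% passed with a higher LG share, those scarce in the spleen included. Of the 90 not scarce in the spleen, 13 did.

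These shares are of clonotypes and not of counts. Of LG IGHM counts pooled over libraries, IGHV11-2 held 0.0703% and IGHV4-1 0.797%, against 0.182% and 1.38% in the spleen. PBS-T mice 9 and 2 gave 55443 and 22036 of the 116624 pooled LG counts, and mouse 9 had no IGHV11-2 clonotype there. The pooled LG shares thus rest largely on these mice. With edgeR on counts per V gene, 107 of 119 tested genes passed. The log2 fold changes were then -1.54 for IGHV4-1 and -1.67 for IGHV12-3 (edgeR adjusted p = 0.012 and 0.0418), so the direction turned. That of IGHV11-2 was -0.40 and did not pass (SE 0.55, edgeR adjusted p = 0.486). The median over all genes was -2.79.

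Of the V genes with a lower share in the LG, IGHV1-26 had the highest share in the spleen. It took 4.22% ± 2.42 (SD, n = 24) of LG and 7.59% ± 0.839 (SD, n = 24) of spleen IGHM clonotypes, with the LG higher in 2 of 24 mice (log2 fold change -0.79, SE 0.18, edgeR adjusted p = 8.48e-05). IGHV1-36 had 2 clonotypes in the LG libraries and 7577 in the spleens (log2 fold change -3.02). Both LG clonotypes came from PBS-T mouse 5, without which the LG had none and the fitted value was -10.4, which depends on the prior count. IGHV1-42, IGHV1-50 and IGHV1-82 had log2 fold changes of -1.61, -1.33 and -1.12. With clonotypes of at least 2 counts, IGHV1-26, IGHV1-42, IGHV1-50 and IGHV1-82 no longer passed. Nor did they among mice with an unmarked LG library, where the log2 fold changes were -0.53, -1.03, -0.69 and -0.73 (edgeR adjusted p = 0.159, 0.169, 0.270 and 0.197).

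Between NOD-FMT and PBS-T mice, few V genes of IGHM clonotypes passed the test. In the LG no V gene had enough clonotypes for the low-count filter of edgeR. Without that filter 0 of 135 genes passed (0%), with 21 at an unadjusted p under 0.05, and with counts in place of clonotypes 0 of 28 passed. In the spleen 1 of 100 genes passed (1%), IGHV1-59, with a log2 fold change of 0.41 (SE 0.10, edgeR adjusted p = 0.0386) and a higher share in NOD-FMT mice. Its call was lost when any 1 of NC mouse 5, NOD-FMT mice 1, 2, 3, 7 and 9, or PBS-T mice 1, 2, 3, 5, 6, 8 and 9 was left out, where the log2 fold change was 0.31 to 0.44 over all 24 such fits.

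Most IGHM clonotypes were found in a single spleen, and a few were found in all. After the filter, 2295130 spleen IGHM clonotypes were found in 1 spleen, 100355 in 2 and 5 in all 24. The filter itself lowers sharing, and without it 2291736 were found in 1 spleen, 98168 in 2 and 54 in all 24. The 5 found in all after the filter were IGHV7-1 with IGHJ1 (HCDR3 of 11 residues), IGHV2-9 with IGHJ4, IGHV7-1 with IGHJ1 (14 residues), IGHV6-6 with IGHJ3 and IGHV2-6-1 with IGHJ1. They were present in NOD-FMT, PBS-T and NC mice alike. They had 1237, 967, 724, 415 and 314 counts over the 24 spleens, with at most 0.299% of the IGHM counts of a spleen. The filter removed most of their counts, on sequences that mice share, and without it they had 30785, 2580, 7392, 2590 and 6094 counts.

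HCDR3 nucleotides of 4 of them are shown because the number of nucleotide forms behind the same amino acids differed between clonotypes. Capitals mark the bases that differ between the commonest forms of the spleens, not all of which are printed. The number of spleens is that in which a form was the commonest of the clonotype after the filter, and other spleens may hold it too.
IGHV7-1 IGHJ1, commonest in 23 spleens: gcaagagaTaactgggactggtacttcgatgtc
IGHV7-1 IGHJ1, commonest in 1 spleen: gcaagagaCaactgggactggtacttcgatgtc
IGHV2-9 IGHJ4, commonest in 2 spleens: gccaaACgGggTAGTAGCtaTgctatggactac
IGHV2-9 IGHJ4, commonest in 1 spleen: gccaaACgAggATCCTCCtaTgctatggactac
IGHV6-6 IGHJ3, commonest in 6 spleens: acAacTggGtttgcttac
IGHV6-6 IGHJ3, commonest in 6 further spleens: acCacTggGtttgcttac
IGHV2-6-1 IGHJ1, commonest in 23 spleens: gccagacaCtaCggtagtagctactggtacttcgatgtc

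The shorter IGHV7-1 clonotype had 6 nucleotide forms of its HCDR3, and 1 form was the commonest in 23 of 24 spleens. The IGHV2-9 clonotype had 60 forms, and 19 different ones were the commonest of a spleen. The shorter IGHV7-1 clonotype ranged from 0.000360% of IGHM counts in NC mouse 3 to 0.299% in NOD-FMT mouse 6, and its other high value was 0.117% in PBS-T mouse 3. These percentages are after the filter. Of its counts 6.63% were unmutated after the filter and 93.6% without it, so the low value came with the filter. The IGHV2-6-1 clonotype had no unmutated count with or without the filter. After the filter its counts most often carried 1 or 2 mismatches in every spleen. Whether these arose by mutation or are differences from the reference gene was not tested. In the glands the shorter IGHV7-1 clonotype had 11 counts (0.00943% of LG IGHM counts, against 0.0171% in the spleens), or 308 in 5 libraries without the filter. The other 4 had 0 to 4 LG counts after the filter. Without it, the longer IGHV7-1 clonotype had 9 LG counts in 6 libraries against 7392 spleen counts, and the IGHV6-6 clonotype had 4 against 2590. The IGHV2-9 and IGHV2-6-1 clonotypes had 0 LG counts with or without the filter, against 2580 and 6094 spleen counts without it. No test of the difference between tissues was made for these clonotypes.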

How the data were processed

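The authors reverse-transcribed total RNA of each tissue with isotype-specific CH1 primers that carry UMIs, amplified it with V gene primers and sequenced it on an Illumina NovaSeq. PEAR joined the read pairs, low-quality reads were dropped, and Clustal Omega grouped the rest by UMI, with UMIs of a single read left out. Constant genes came from the IMGT database and V, D and J genes from IgBLAST. V gene primers can also weight V genes. The deposited values are raw counts of consensus sequences per unique productive sequence, with the number of V mismatches, not normalized. The labels name mm10 as the build.

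Here, nucleotide sequences held by 3 or more mice of a tissue were removed, and clonotypes were formed from V gene, J gene and HCDR3 amino acids. The removal took 9.83% of LG and 9.84% of spleen counts. The study describes its own filter in similar words but states that it removed a far smaller share. The filters therefore differ in a way that is not known, and values without the filter are an alternative. The mouse was the replicate. Between groups, a two-sided exact permutation test ran over all splits (92378 for 10 against 9 mice), and between tissues a sign-flip permutation test with 100000 resamples, each with Benjamini-Hochberg adjustment and a threshold of 0.05. V genes were tested with the quasi-likelihood test of edgeR 4.0.16 in R 4.3.3, with DESeq2 1.42.0 as an alternative. TMM factors were used for the group comparisons. For LG against spleen, TMM had been planned, but it shifted all genes of simulated sparse LG libraries, so library sizes alone were used and TMM became an alternative. Scripts were tested on simulated data. Python 3.11.15, NumPy 2.4.6, pandas 2.3.3, SciPy 1.17.1 and Matplotlib 3.10.9 were used. Wilson intervals at 95% and the limit of 3 counts for a count of 0 cover counting error only.

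The V genes named are up to 5 in each direction with the smallest adjusted p, plus a list of 6 B-1 and early rearranged genes. The clonotypes named are the 5 in the LG and 3 in the spleen with the largest share of a library's IGHM counts, and the 5 found in the most spleens. Of the constant genes, the 2 whose shares correlate best with IGHM in a tissue were named. The members and lists were chosen with earlier results of these data known. Positions come from GENCODE M21 (GRCm38), in which 102 of the 147 V gene names of IGHM sequences were matched, where all isotypes together have 148. Alternatives were other contamination filters, minimum counts, thinning, the log2 scale, ranks, sequences in place of counts, clonotypes by nucleotides, the replicate block, merged and other LG libraries, and each mouse left out. No sample was left out of the grouping, and the series text names 10 PBS-T mice where 9 are labelled and used here.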

Additional observations from a re-analysis of the deposited data

Results flagged for a closer look

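In 24 sets of 5, 9 or 10 libraries, the highest and the lowest library was set against the others by Dixon's criterion, which flags about 1 in 20 sets by chance, and 5 values stood apart. The IGHM share of LG counts was 3.50% in NC mouse 2, above the 0.555% to 1.10% of the other NC mice, and 3.53% in NOD-FMT mouse 9, above at most 1.62% in the other NOD-FMT mice. In NOD-FMT mouse 9 the largest clonotype also stood apart, with 76.9% of the LG's IGHM counts. In both libraries a single clonotype held over 76% of the IGHM counts. In the spleen, the largest clonotype held 3.52% of IGHM counts in NOD-FMT mouse 3, which has the deepest library (2032338 counts), and 45.5% in PBS-T mouse 6, where the next PBS-T spleen had 6.43%. PBS-T mice 2 and 9, with the highest IGHM shares in the LG, did not stand apart by this criterion, since they lie apart from the other 7 together. Mouse 9 fell just short of the limit.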

How the results depend on the processing

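Over 738 alternative values of 27 main results, 680 kept their direction and side of the threshold. For the V-gene results, a similar number of called genes counted as kept. Of all 1252 alternative values, those of named V genes included, 120 were chosen after seeing the data. The LG-spleen differences in IGHM share and in the largest clonotype kept their direction and side of the threshold throughout. Where values below turned, the cause was not tested. With merged LG libraries only, the LG differences between NOD-FMT and PBS-T were -4.05 points of counts and -14.0 of clonotypes (both past the threshold), 1.03 of the unmutated share and -5.25 of the largest clonotype (both turned). On the log2 scale, the difference of effects between tissues for the largest clonotype was 1.62 (adjusted exact permutation p = 0.0285), against 14.1 points on the plain scale (adjusted exact permutation p = 0.128), and the unmutated LG-spleen difference was -0.0503. That difference was also -0.209 without the contamination filter, -2.69 with other LG libraries only and -1.61 with sequences in 3 mice of either tissue removed. Counted by unique sequences it was -14.8 (adjusted sign-flip permutation p = 2e-05), and -14.6 without the contamination filter as well, both past the threshold. The spleen count difference between NOD-FMT and NC was 1.2 by ranks, 2.24 with the replicate block, 0.664 with sequences of 2 or more mice removed and 3.19 with sequences of at least 2 counts. By unique sequences the unmutated share in the LG was 6.12 points higher in NOD-FMT than PBS-T, and without PBS-T mice 2 and 9 the difference of effects in counts was 3.77.

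With each mouse left out in turn, the NOD-FMT minus PBS-T difference in the LG ran from -11.0 to -4.93 points of counts, -16.6 to -10.8 of clonotypes and -7.84 to 2.62 of the unmutated share. The NOD-FMT minus NC difference ran from -0.506 to 0.295 for LG counts, -1.12 to 1.14 for spleen counts and -2.67 to 0.355 for the unmutated spleen share. The LG-spleen difference in the unmutated share ran from -0.0122 to 3.14, the difference of effects in counts from -6.65 to 0.506, and the called spleen V genes from 0 to 1.

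V genes called between LG and spleen numbered 2 in NC, 28 in NOD-FMT and 18 in PBS-T mice alone, 8 with clonotypes of at least 2 counts, 107 by counts, 11 with other LG libraries and 33 with no replicate block. Between NOD-FMT and PBS-T, 8 were called in the spleen by counts, and in the LG 1 with the replicate block and 1 with merged libraries. IGHV2-2 turned to -0.40 with DESeq2, -0.18 with TMM and -0.22 with clonotypes of at least 2 counts. By counts, log2 fold changes turned to -0.40 for IGHV11-2, -1.67 for IGHV12-3, -1.59 for IGHV2-2, -1.54 for IGHV4-1 and -1.77 for IGHV5-2. All of these except that of IGHV11-2 passed the threshold.

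Replicate numbers did not pair NOD-FMT and PBS-T mice. Correlations of same-numbered deviations were -0.134 to 0.216 in the LG (5 of 9 over 0.1, 0 best with their own number) and -0.552 to 0.622 in the spleen (3 of 9, 1 best). With the replicate block, the differences were -9.63 points of LG counts (adjusted permutation p = 0.406), -13.6 of LG clonotypes and -6.05 of spleen counts, and the block changed no call other than that of the LG V genes. IGHM depth limits the LG, where 167 counts were the fewest.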

Other observations

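The largest IGHM clonotype in the spleen of PBS-T mouse 8 was also large in other mice, and it was chosen here after its values were seen. It joins IGHV1-26 to IGHJ1 with an HCDR3 of 13 residues and held, after the filter, 12005 IGHM counts in PBS-T mouse 8 (2.84% of IGHM), 8879 in PBS-T mouse 9 (2.81%), 7293 in NOD-FMT mouse 9 (1.54%), 1219 in PBS-T mouse 2 (0.685%) and 796 in NOD-FMT mouse 5 (0.286%). After the filter it occurred as IGHM in 15 spleens and in the LG of 4 mice, and 7 spleens held more than 100 counts. Without the filter it occurred in 18 spleens, of which 9 held more than 100 counts, and in the same number of glands. The filter took its counts from 2131 to 290 in the spleen of NOD-FMT mouse 8 and from 1792 to 71 in the LG of PBS-T mouse 2. Mice of all 3 groups held it. The HCDR3 forms that were the commonest of a library are shown, with capitals at the bases that differ between them.
Commonest in 16 libraries: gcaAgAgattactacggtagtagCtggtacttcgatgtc
Commonest in SP NOD-FMT mouse 8: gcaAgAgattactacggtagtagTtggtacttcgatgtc
Commonest in SP NC mouse 5: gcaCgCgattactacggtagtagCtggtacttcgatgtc
Commonest in LG NOD-FMT mouse 9: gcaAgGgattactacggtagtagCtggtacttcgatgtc
In PBS-T mouse 8 its counts lay on 1754 sequences and 40 HCDR3 forms. In PBS-T mouse 9 they lay on 467 sequences, and 85.1% carried exactly 2 mutations. The filter removes unmutated sequences that mice share, so unmutated shares are given without it. They were 14.3% of 14055 counts in PBS-T mouse 8, 13.4% of 10253 in PBS-T mouse 9 and 18.1% of 7890 in NOD-FMT mouse 9. In NOD-FMT mouse 8 it was 88.7% of 2131 counts, and in NC mouse 1 94.4% of 609.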
